A study of Mus musculus with 9 samples.

Results

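The semaphorins, plexins and neuropilin described here are 9 genes, 5 ligands (Sema4a, Sema4b, Sema4d, Sema6d and Sema7a), 3 plexins (Plxnb2, Plxnc1 and Plxnd1) and the co-receptor Nrp1. They were found by symbol among the 24054 genes of the count and expression tables, and all 9 passed the filter on low counts that left 14452 genes for testing. Expression was measured by mRNA sequencing of spleen cells sorted as live, autofluorescence-negative cells carrying MHCII, CD11c and CD11b, the phenotype of type 2 conventional dendritic cells (cDC2). All mice were C57BL/6, homozygous for Clec9a-Cre and for a Cre-activated tdTomato reporter in the Rosa locus, so that TOM+ cells descend from, or are, cells in which the Clec9a promoter drove Cre. The 3 groups of 3 libraries were TOM+ cDC2 from mice at postnatal day 8, TOM- DC2 from mice at postnatal day 8, and TOM+ cDC2 from adult mice of 8 weeks (2 libraries) or 9 weeks (1 library). Spleens of young mice were pooled, and male and female mice were used. Cycling progenitors can escape such a label, which the study meant to limit by homozygous Cre and examined in separate experiments that are not analysed here.

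Semaphorins are secreted or membrane-bound signalling proteins first known for steering growing axons. Their main receptors are the plexins, whose cytoplasmic part acts on small GTPases and through them on the actin skeleton and on integrins, and neuropilins serve as co-receptors that bind class 3 semaphorins and vascular endothelial growth factor. In the immune system, dendritic cells carry semaphorins on their surface as signals to T and B cells, and use plexins in migration and in contacts with lymphocytes.

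The sequences just upstream of Sema4a and Sema4b are shown because these were the 2 semaphorins among the 9 members that were higher in both young groups than in adults. They were copied from RefSeq (GRCm38.p6), read 5′ to 3′ on the gene's strand and end at an annotated start or, for Sema4b, just before a GENCODE exon that begins upstream of it. Capitals mark matches to the GC box (GGGCGG on either strand). The Sema4a window is chr3:88461183-88461432 on the minus strand, upstream of the outermost of its 4 annotated starts. The Sema4b window is chr7:80186620-80186840 on the plus strand, upstream of the outer of its 2 starts.
Sema4a: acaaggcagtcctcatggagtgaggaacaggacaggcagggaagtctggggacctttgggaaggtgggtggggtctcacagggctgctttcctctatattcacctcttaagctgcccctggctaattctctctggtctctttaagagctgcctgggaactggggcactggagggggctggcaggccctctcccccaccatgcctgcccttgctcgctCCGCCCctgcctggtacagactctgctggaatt
Sema4b: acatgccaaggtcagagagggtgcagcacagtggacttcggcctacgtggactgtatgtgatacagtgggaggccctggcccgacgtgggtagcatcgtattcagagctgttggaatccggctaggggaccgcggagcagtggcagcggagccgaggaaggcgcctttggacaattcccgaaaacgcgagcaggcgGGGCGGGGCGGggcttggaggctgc

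All 9 members had at least 1 window of 250 bases upstream of a start in RefSeq, 17 windows in all, some of which overlap for Sema4a. Of the 17, 13, from all 9 members, held a GC box, against 32.7% of the 32851 windows in the table. The 17 windows held 45.2% to 72.4% G and C and 1 to 23 CG dinucleotides, where the medians over all windows were 52.4% and 6. The part of base composition in the GC box matches was not tested. An interferon-stimulated response element (GAAA, any 2 bases, then GAAA again) was matched in the window of Plxnc1 alone, 118 bases before the start used, against 3.0% of all windows. An AP-1 site (TGANTCA) was matched upstream of 1 of the 3 starts of Sema4d, against 6.7% of all windows. The letters of a gamma-activated site (TTCNNNGAA, 7.0% of all windows), a PU.1 site (GAGGAAGT, 2.4%), a cAMP response element (TGACGTCA, 1.5%) and a TATA box (TATAAA, 12.4%) were in none of the 17 windows. Apart from the 2 windows shown, the windows, that of Plxnc1 included, lie wholly or partly within the RefSeq span of their own gene, since they precede an inner start, and may hold untranslated exons of other transcripts. Both strands were searched, overlapping matches were counted, and which start these cells use was not measured.

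The libraries held between 12783252 and 22809401 reads assigned to genes. The sorted cells had the markers of dendritic cells: all 12 genes of a cDC2 and dendritic cell list averaged above 1 TPM (RSEM's transcript abundance, scaled for length and to the library's total) in every group, and their sum ranged from 58800 to 96100 TPM. Of these 12, 11 passed in each comparison with adults, 3 higher in young and 8 higher in adult cells. Esam, which marks a subset of splenic cDC2, averaged 19.0 ± 6.99 TPM in young TOM+ cDC2, 28.4 ± 8.26 TPM in TOM- DC2 and 80.0 ± 9.49 TPM in adults, Clec4a4 averaged 108, 126 and 259 TPM, and Clec10a 43.2, 53.7 and 11.7 TPM. The part of these subset markers in the age differences of the members was not tested. T-cell markers summed to at most 6.54 TPM. The 7 markers of cDC1 summed to 202 to 253 TPM, mostly Batf3 (158 to 187 TPM on average), with Irf8 at 23.6 to 47.2, Cadm1 at 6.54 to 19.7, Xcr1 and Tlr3 between 2.3 and 3.3, and Clec9a and Itgae under 1 TPM. The 7 monocyte markers summed to 508 to 576 TPM. Of these 7, 5 passed between young and adult TOM+ cDC2, 4 higher in young and 1 higher in adult cells (71.4%, beside 40.6% of all genes). Between TOM- DC2 and adults 2 passed, 1 in either direction, and their part in the values of the members was not tested. The TOM- libraries held more macrophage markers (224 to 276 TPM in sum, against 141 to 172 in young TOM+ cDC2 and 92.6 to 137 in adults). TOM- replicate 1 stood apart with 700 TPM of erythroid markers and 32.4 TPM of neutrophil markers, where the other 8 libraries had at most 46.4 and 1.05 TPM. In bulk samples, a gene that is expressed in fewer cells and a gene with less RNA per cell cannot be told apart.

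With age, the semaphorins of these cells changed in opposite directions. Sema4a was 5.05-fold higher in young than in adult TOM+ cDC2, Sema4b was 1.86-fold higher, Sema7a was 4.76-fold lower and Sema4d 1.98-fold lower. Of the receptors, Plxnd1 was 1.75-fold higher in young cells and Plxnc1 1.65-fold lower, while Plxnb2, Nrp1 and Sema6d did not pass the test. Thus 6 of 9 members passed (3 higher in young TOM+ cDC2 and 3 higher in adult TOM+ cDC2), where 40.6% of all genes tested passed, 21.0% higher in young and 19.5% higher in adult cells. The members were chosen with earlier results of these data known, so this count and those below describe them and are no test of the family. A gene passes the test at an adjusted p under 0.05 in edgeR's quasi-likelihood test, Benjamini-Hochberg adjusted over all genes tested, and is called differentially expressed when it also changes more than 2-fold. With edgeR 2 members, Sema4a and Sema7a, were called, against 12.8% of all genes, and with DESeq2 3 members were called. The median log2 fold change was -0.17 over the 9 members and 0.05 over all genes tested.

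The same question was asked of TOM- DC2, which were compared with the same adult libraries, so that both comparisons with adults share their controls. There, 7 of 9 members passed, 4 higher in TOM- DC2 (Sema4a, Sema4b, Nrp1 and Plxnd1) and 3 higher in adult cells (Sema4d, Sema7a and Plxnc1), where 36.3% of all genes passed, 19.4% higher in TOM- DC2 and 16.9% higher in adult cells. Sema4a, Sema4b and Sema7a were called, against 11.3% of all genes. Between the 2 young groups, 1 member, Sema4a, passed, higher in TOM+ cDC2, where 1.60% of all genes passed, 0.125% higher in TOM+ cDC2 and 1.47% higher in TOM- DC2. With edgeR 0 members were called, where 1.18% of all genes were, and with DESeq2 also 0. At an unadjusted p under 0.05 edgeR's test found 5 members (Sema4a, Sema4b, Sema6d, Sema7a and Nrp1).

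**Figure D1:**
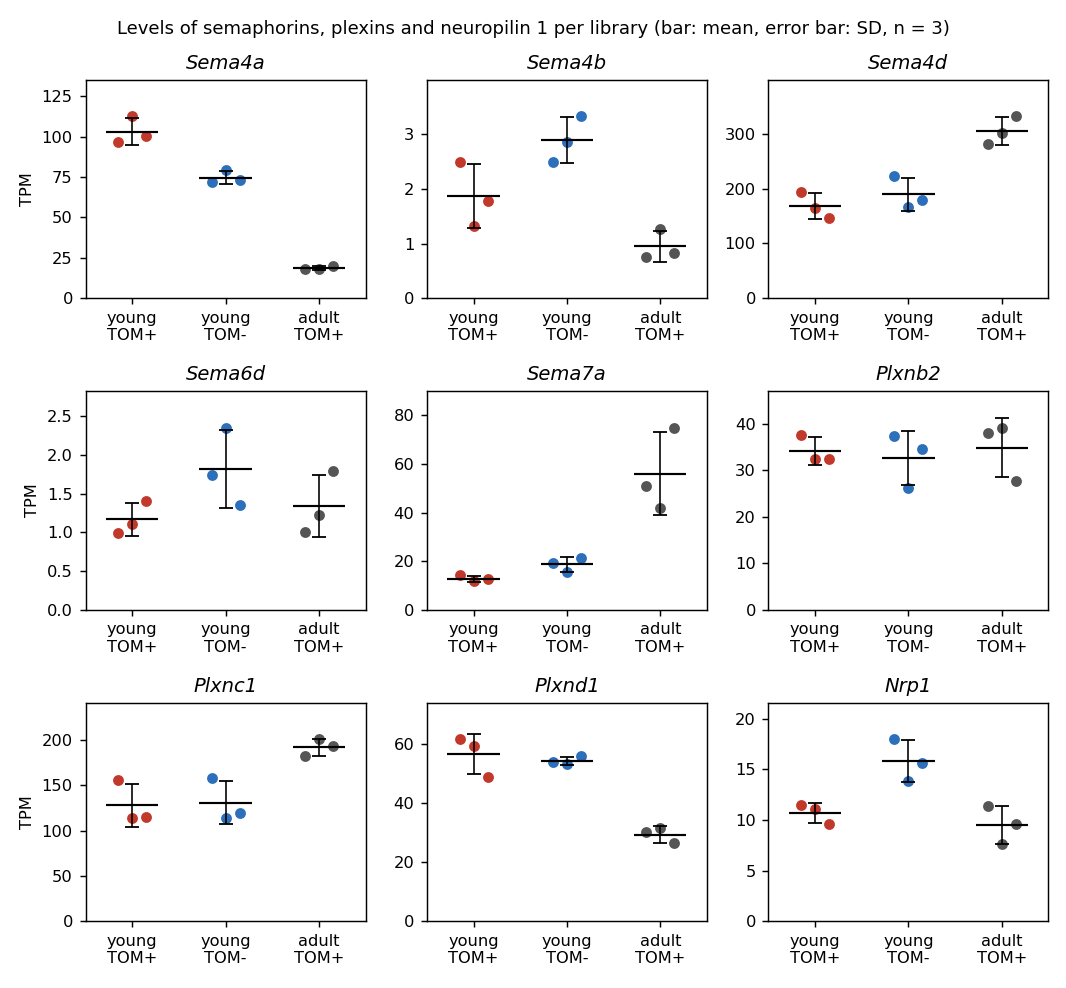
Levels of the 9 members in TPM (vertical axes, starting at 0) in the 3 libraries of each group (dots), with the mean (bar) and SD (error bar). The adult libraries lie below all young ones for Sema4a and Plxnd1 and above all young ones for Sema4d, Sema7a and Plxnc1, while the groups overlap for Plxnb2 and Sema6d.

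Sema4a, a class 4 membrane semaphorin carried by dendritic cells and activated T cells, lies at chr3:88435959-88461182 on the minus strand. Its level was 96.5, 112.63 and 100.27 TPM in the 3 libraries of young TOM+ cDC2, 71.64, 79.14 and 73.11 TPM in young TOM- DC2, and 17.91, 18.11 and 20.1 TPM in the adult libraries. The 3 groups did not overlap, with young TOM+ cDC2 highest, TOM- DC2 between and adults lowest. The means were 103 ± 8.44, 74.6 ± 3.97 and 18.7 ± 1.21 TPM (SD, n = 3 each). The difference from adults was 2.34 on the log2 scale (SE 0.11, edgeR adjusted p = 4.8e-08) in TOM+ cDC2 and 1.84 (SE 0.10, edgeR adjusted p = 2.5e-07) in TOM- DC2.

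Between the young groups Sema4a was 1.41-fold higher in TOM+ cDC2 (log2 fold change 0.49, SE 0.10, edgeR adjusted p = 0.024). Sema4a was thus one of the 18 genes of all 14452 that passed in this direction. The call rested on the libraries used: the adjusted p rose to 0.13 and 0.084 without TOM+ replicates 2 and 3, to 0.085 and 0.11 without TOM- replicates 1 and 3, and to 0.063 when the 6 young libraries were fitted alone, with the log2 fold change between 0.41 and 0.57 each time a library was left out. With the young libraries paired by number, a pairing inferred from these same data, the edgeR adjusted p was 0.00072.

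Sema4b, also of class 4 and much less abundant, lies at chr7:80186870-80226646 on the plus strand. Its level was 2.49, 1.33 and 1.77 TPM in young TOM+ cDC2, 2.49, 2.85 and 3.33 TPM in TOM- DC2, and 0.76, 1.27 and 0.82 TPM in adults. Every young library was above every adult one in TPM, though TOM+ cDC2 and adults overlapped in normalised read counts, and the young groups met at 2.49 TPM. On the log2 scale the change was 0.89 (SE 0.26, edgeR adjusted p = 0.017) for TOM+ cDC2 and 1.52 (SE 0.26, edgeR adjusted p = 6.7e-04) for TOM- DC2 over adults. It rested on 23 to 181 reads a library, and the first of these calls was lost without TOM+ replicate 1 (adjusted p = 0.068), adult replicate 1 (0.063) or adult replicate 3 (0.066).

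Sema4d (CD100), a membrane semaphorin that binds class B plexins and CD72 and can be shed from the surface, lies at chr13:51685529-51793678 on the minus strand. It was the most abundant semaphorin in every library, at 194.16, 164.1 and 147.21 TPM in young TOM+ cDC2, 223.44, 166.58 and 179.5 TPM in TOM- DC2, and 280.5, 301.68 and 332.05 TPM in adults. The young groups overlapped and the adult libraries lay above both. Relative to adults the log2 fold change was -0.99 (SE 0.10, edgeR adjusted p = 1.4e-05) in TOM+ cDC2 and -0.85 (SE 0.10, edgeR adjusted p = 5.5e-05) in TOM- DC2. The first value stood at the edge of the 2-fold threshold: over all alternatives it ranged from -1.06 to -0.86.

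Sema7a, anchored to the membrane by a lipid and known to bind Plxnc1 and beta 1 integrins, lies at chr9:57939596-57962865 on the plus strand. Its level was 14.13, 11.68 and 12.63 TPM in young TOM+ cDC2, 19.41, 15.45 and 21.19 TPM in TOM- DC2, and 51.09, 41.78 and 74.85 TPM in adults. The 3 groups did not overlap, in the reverse order of Sema4a, and the adult libraries differed most among themselves (SD 17.1 TPM). Sema7a differed from adults by a log2 fold change of -2.25 (SE 0.17, edgeR adjusted p = 1.7e-06) in TOM+ cDC2 and -1.73 (SE 0.17, edgeR adjusted p = 1.3e-05) in TOM- DC2. Between the young groups it was -0.53 (95% interval -0.90 to -0.15, edgeR adjusted p = 0.24), which did not pass the test.

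Sema6d, a class 6 membrane semaphorin that binds Plxna1, lies at chr2:124089943-124667789 on the plus strand. Its level was 0.99, 1.11 and 1.4 TPM in young TOM+ cDC2, 1.74, 2.35 and 1.35 TPM in TOM- DC2, and 1, 1.23 and 1.79 TPM in adults. The 3 groups overlapped. No comparison passed (edgeR adjusted p = 0.23, 0.45 and 0.60), on 44 to 117 reads a library, and 2 unrelated non-coding genes that the authors counted lie within its span, where reads cannot be told apart by strand.

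Plxnc1, the plexin that binds Sema7a, was the most abundant plexin and lies at chr10:94790866-94945015 on the minus strand. Its level was 155.18, 113.61 and 114.53 TPM in young TOM+ cDC2, 157.67, 114.22 and 119.57 TPM in TOM- DC2, and 181.87, 200.44 and 193.2 TPM in adults. The adult libraries lay above all young ones. Plxnc1 had a log2 fold change of -0.72 over adults in both young groups (SE 0.12 each, edgeR adjusted p = 3.5e-04 in TOM+ cDC2 and 4.3e-04 in TOM- DC2). The 95% interval of the difference between the young groups ran from -0.25 to 0.25 on the log2 scale.

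Plxnd1, a receptor of the secreted Sema3e that has also been described as a receptor of Sema4a, lies at chr6:115954811-115995339 on the minus strand. Its level was 61.68, 59.42 and 48.85 TPM in young TOM+ cDC2, 53.96, 53.18 and 55.89 TPM in TOM- DC2, and 30.22, 31.66 and 26.4 TPM in adults. The adult libraries lay below all young ones. For Plxnd1 the log2 fold change over adults was 0.81 (SE 0.11, edgeR adjusted p = 8.5e-05) in TOM+ cDC2 and 0.72 (SE 0.11, edgeR adjusted p = 2.5e-04) in TOM- DC2, and the interval between the young groups ran from -0.14 to 0.32.

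Plxnb2, a class B plexin that binds class 4 semaphorins, lies at chr15:89155546-89182018 on the minus strand. Its level was 37.71, 32.45 and 32.38 TPM in young TOM+ cDC2, 37.39, 26.16 and 34.54 TPM in TOM- DC2, and 37.97, 39.2 and 27.63 TPM in adults. The groups overlapped throughout. The log2 fold change was -0.17 (95% interval -0.49 to 0.15, edgeR adjusted p = 0.37) for TOM+ cDC2 and -0.26 (-0.58 to 0.06, edgeR adjusted p = 0.19) for TOM- DC2 over adults. Adult replicate 3, the lowest adult library, decided these calls: without it the values were -0.34 (adjusted p = 0.045) and -0.42 (adjusted p = 0.018).

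Nrp1, the co-receptor, lies at chr8:128358591-128505476 on the plus strand. Its level was 11.45, 11.13 and 9.61 TPM in young TOM+ cDC2, 17.98, 13.85 and 15.66 TPM in TOM- DC2, and 11.36, 7.6 and 9.63 TPM in adults. The TOM- libraries lay above all the others, and the TOM+ libraries of both ages overlapped. The log2 fold change was 0.56 (SE 0.13, edgeR adjusted p = 0.0046) for TOM- DC2 over adults, 0.03 (95% interval -0.25 to 0.31, edgeR adjusted p = 0.87) for young TOM+ cDC2 over adults, and -0.53 (SE 0.13, edgeR adjusted p = 0.069) for young TOM+ cDC2 over TOM- DC2.

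The last value changed its side of the threshold with the fit. With the young libraries paired by number it passed (log2 fold change -0.53, edgeR adjusted p = 0.037), which made 2 of the 9 members pass between the young groups, and it passed with DESeq2 (adjusted p = 0.011). Over all 20 alternatives its adjusted p ranged from 0.011 to 0.29. Macrophage markers, like Nrp1, were higher in TOM- DC2 than in adults: of the 7 of 8 listed genes found in the files, 6 passed in this direction. Between young and adult TOM+ cDC2, where Nrp1 did not pass, 3 of the 7 passed, 2 higher in young and 1 higher in adult cells. Between the young groups 0 of the 7 passed with edgeR, but 6 had an unadjusted p under 0.05, 2 passed with DESeq2, and all 7 fitted values were higher in TOM- DC2 (log2 fold changes of TOM+ over TOM- between -1.18 and -0.5). Mertk averaged 0.887 TPM in young TOM+ cDC2, 1.98 TPM in TOM- DC2 and 0.51 TPM in adults. Their part in the Nrp1 values was not tested. Of the endothelial markers, a cell type in which Nrp1 and Plxnd1 are abundant, Cdh5, Emcn and Tek averaged under 1 TPM in every group, and the list summed to 50.4 to 76.6 TPM, mostly Pecam1. Egfl7 averaged 1.81, 1.27 and 0.08 TPM, Stab2 0.52, 1.18 and 0.0633 TPM and Plvap 3.86, 4.65 and 1.63 TPM in young TOM+ cDC2, TOM- DC2 and adults. Of the 7 endothelial genes tested, 2 (Egfl7 and Stab2) passed as higher and 1 (Pecam1) as lower in TOM- DC2 than in adults, and their part in the Nrp1 and Plxnd1 values was not tested. Without TOM- replicate 1 the Nrp1 difference between TOM- DC2 and adults was 0.51 (edgeR adjusted p = 0.015).

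**Figure D2:**
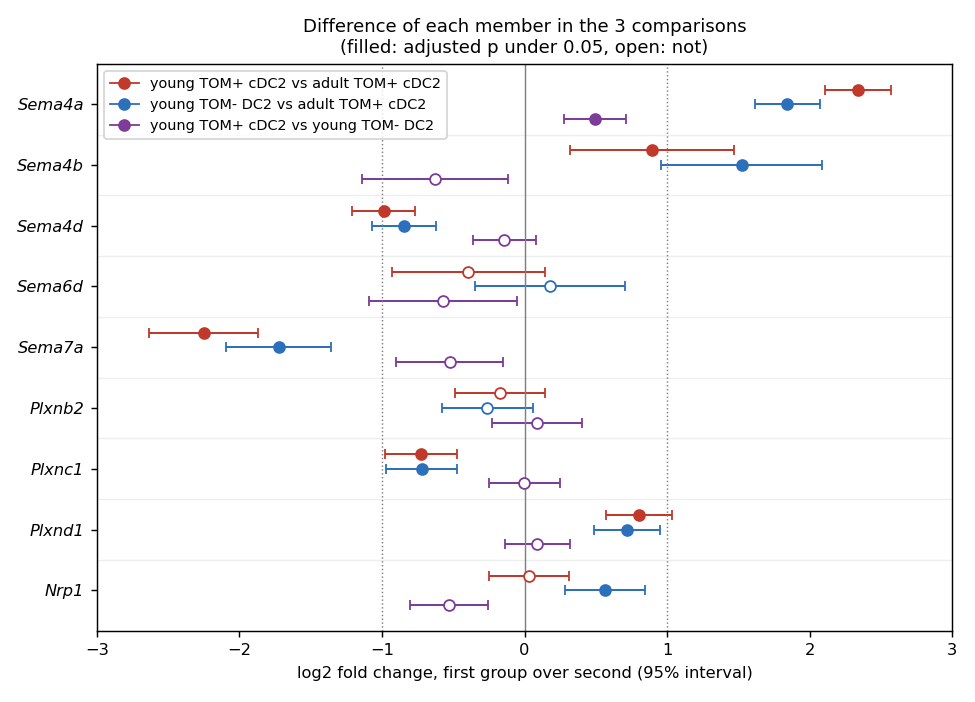
Log2 fold change of each member (horizontal axis) with its 95% interval in the 3 comparisons (colours). Filled symbols passed the test and open ones did not, and dotted lines mark a 2-fold change. Both comparisons with adults, which share the adult libraries, place Sema4a, Sema4b and Plxnd1 to the right and Sema4d, Sema7a and Plxnc1 to the left.

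The share of each gene in the summed TPM of its family shows how the mix of ligands differed with age. Sema4a made up 35.3% ± 3.95 of all semaphorin TPM in young TOM+ cDC2, 25.5% ± 3.50 in TOM- DC2 and 4.85% ± 0.215 in adults (SD, n = 3 each). Sema4d was at 57.3% ± 4.03 and 64.1% ± 4.09 in the young groups and 79.0% ± 2.74 in adults, and Sema7a was at 4.37% ± 0.391, 6.33% ± 0.904 and 14.3% ± 2.94. So Sema4a ranked behind Sema4d and ahead of Sema7a in every young library, and behind both in every adult library. For each unit of Sema4d TPM there were 0.621 ± 0.108, 0.401 ± 0.0774 and 0.0615 ± 0.00208 units of Sema4a in the same order of groups. All semaphorins together summed to 270 to 314 TPM in young TOM+ cDC2, 273 to 325 TPM in TOM- DC2 and 356 to 435 TPM in adults.

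Among the plexins, Plxnc1 made up 57.3% ± 2.78, 58.6% ± 3.27 and 74.4% ± 2.77 of the family's TPM in young TOM+ cDC2, young TOM- DC2 and adults. Plxnd1 was at 25.6% ± 2.52, 24.8% ± 3.03 and 11.4% ± 0.728, and Plxnb2 at 15.5% ± 0.815, 14.7% ± 1.44 and 13.5% ± 2.13. Plxnd1 was above Plxnb2 in every young library and below it in every adult library, by as little as 10.6% against 11.1% in adult replicate 3, and their levels across the adult libraries overlapped. The young and adult shares of Sema4a, Sema4d, Sema7a, Plxnc1 and Plxnd1 did not overlap. An exact two-sided permutation test over libraries gave p = 0.1 for each of these, the smallest value that 3 against 3 libraries allow (Benjamini-Hochberg adjusted p = 0.157 over 36 values), so that no share could pass.

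**Figure D3:**
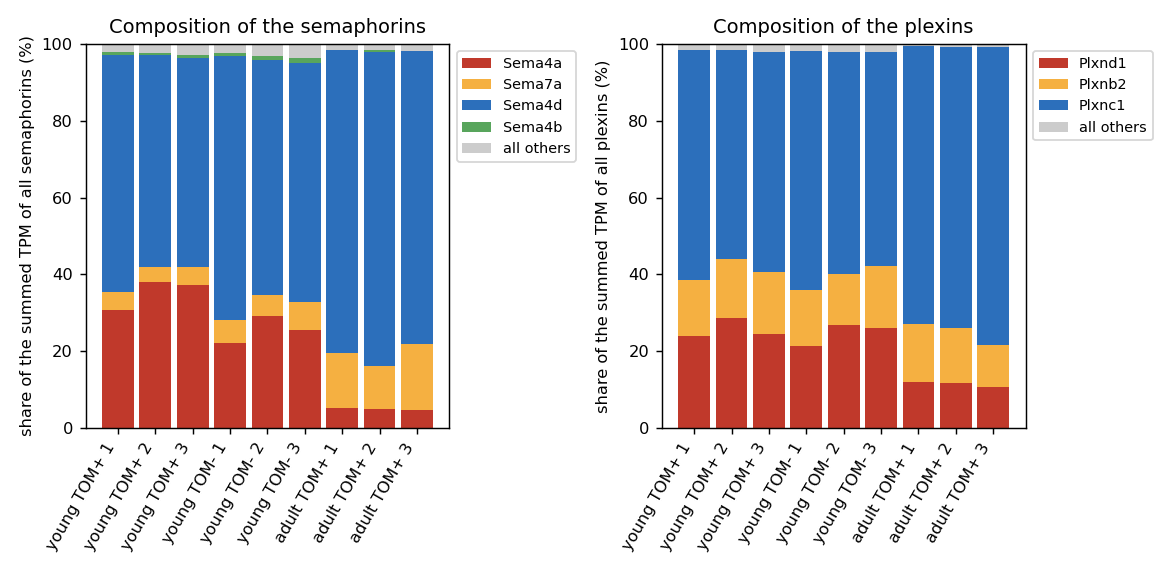
Share of each gene in the summed TPM of all semaphorins (left) and all plexins (right), in percent, in each of the 9 libraries. Sema4a takes 22.0% to 37.9% in the young libraries and 4.62% to 5.04% in the adult ones, and Plxnd1 takes 21.3% to 28.5% and 10.6% to 12.0%.

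The other 22 genes of the family, 15 semaphorins, 6 plexins and Nrp2, were at most 5.06 TPM in any library, and 4 of them (Sema3c, Sema3e, Sema3g and Sema5b) were too low to be tested. Of the 18 tested, 4 passed between young and adult TOM+ cDC2, all higher in young cells, 5 passed between TOM- DC2 and adults, all higher in TOM- DC2, and 1 passed between the young groups, higher in TOM- DC2. These are 22.2%, 27.8% and 5.56% of the 18, where 40.6%, 36.3% and 1.60% of all genes passed. The genes named next were chosen after their values were seen. Sema6b was at 1.73 ± 0.35 TPM in young TOM+ cDC2 and 0.39 ± 0.128 TPM in adults (4.01-fold, SE 0.33 on the log2 scale, edgeR adjusted p = 4.3e-04), and Plxna1, the plexin that binds Sema6d, was at 2.88 ± 0.309 and 1.27 ± 0.155 TPM (log2 fold change 1.06, SE 0.14, edgeR adjusted p = 9.5e-05). Plxnb3 also passed, on 1 to 63 reads a library.

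Plxna4, a receptor of class 3 semaphorins with neuropilin 1, had no read in any adult library, 4, 6 and 4 reads in young TOM+ cDC2, and 29, 27 and 66 reads in TOM- DC2. It was thus 8.35-fold lower in TOM+ cDC2 than in TOM- DC2 (log2 fold change -3.06, SE 0.46, edgeR adjusted p = 0.0066), the 1 gene of the 18 that passed between the young groups, and the call was lost without TOM- replicate 3 (adjusted p = 0.06) and with limma on log2(TPM + 1) (log2 fold change -0.32, adjusted p = 0.24) or log2(TPM + 0.1) (-1.54, adjusted p = 0.19). Against a floor of 3 reads a library, it was at least 8.88-fold higher in TOM- DC2 than in adults. Plxna4 also passed between young and adult TOM+ cDC2 (edgeR adjusted p = 0.0071), where that floor leaves a difference of at least 1.06-fold. This call was lost with limma on log2(TPM + 1) (adjusted p = 0.72) or log2(TPM + 0.1) (adjusted p = 0.47). These counts belong to a level of at most 0.37 TPM.

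Partners outside the family were read from a list of 10 receptors, 8 of them tested. In each comparison with adults 2 passed, 1 in either direction (25% of the 8, where 40.6% and 36.3% of all genes passed), and 0 passed between the young groups (edgeR, 0 also at an unadjusted p under 0.05, and 0 with DESeq2). Cd72, an inhibitory receptor of B cells that binds Sema4d, was at 24.53, 17.63 and 14.17 TPM in young TOM+ cDC2, 31.86, 23.18 and 20.17 TPM in TOM- DC2, and 146.39, 145.8 and 131.77 TPM in adults. The adult libraries lay far above all young ones. Cd72 differed from adults by a log2 fold change of -3.01 (SE 0.19, edgeR adjusted p = 4.1e-07) in TOM+ cDC2 and -2.69 (SE 0.18, edgeR adjusted p = 1.0e-06) in TOM- DC2. The B-cell markers Cd79a and Pax5 averaged under 1 TPM in every group, and the list summed to 60.9 to 71.1, 70.3 to 81.2 and 42.5 to 55.2 TPM in the same order of groups.

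Itgb1, the beta 1 integrin chain of a Sema7a receptor, was at 196 TPM in young TOM+ cDC2, 193 TPM in TOM- DC2 and 146 TPM in adults (log2 fold change 0.30, SE 0.09, edgeR adjusted p = 0.016, and 0.24, SE 0.09, edgeR adjusted p = 0.046). Neither call was stable to leaving out 1 library. The first was lost without TOM+ replicate 1 or 3 or adult replicate 1 or 2 (adjusted p up to 0.061). The other was lost without any library but adult replicate 3 (up to 0.14), and with 5 other alternatives such as DESeq2's size factors in edgeR (0.073). Tyrobp, the adaptor of a Plxna1 receptor complex, averaged 2040, 2130 and 2260 TPM and did not pass in edgeR's test, while its partner Trem2 had at most 1 read in a library.

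Set side by side, ligands and the receptors they are known for moved the same way with age in some pairs and not in others. Sema7a and Plxnc1 were both lower in young cells, Sema4d and Cd72 were both lower, and Sema4a and Plxnd1 were both higher. Itgb1 was higher where Sema7a was lower, and Plxnb2 did not pass the test where Sema4a and Sema4d did. The pairs were put together after the values were seen, and no protein was measured.

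Of 31 genes that act downstream of plexins and neuropilins, 29 were tested. Between young and adult TOM+ cDC2, 12 passed, 7 higher in young and 5 higher in adult cells (41.4%, close to the 40.6% of all genes), and between TOM- DC2 and adults 13 passed, 7 and 6 (44.8%, beside 36.3%). Higher in young TOM+ cDC2 were Gipc1, which binds the tail of neuropilin (log2 fold change 0.75, SE 0.09), Dpysl2, a collapsin response mediator that binds tubulin (0.79, SE 0.09), the actin-severing cofilin Cfl1 (0.54, SE 0.08), the GTPases Rnd3 (0.54, SE 0.16) and Rac1 (0.43, SE 0.07), and Arhgef11, a guanine nucleotide exchange factor recruited by class B plexins (0.38, SE 0.11). The edgeR adjusted p of these 6 lay between 3.2e-05 and 0.018. Lower in young cells were Mical3, of the actin-oxidising MICAL family (-1.30, SE 0.14), Rras2, a relative of the R-Ras that plexins inactivate (-0.68, SE 0.08), and the tyrosine kinases Fes (-0.49, SE 0.09) and Fyn (-0.34, SE 0.08), with edgeR adjusted p between 1.4e-05 and 0.0053. Dpysl3, higher, and Arhgef12, lower in young cells, also passed, at under 5 TPM. Dpysl3 rested on 0 to 23 reads a library in young TOM+ cDC2 and 0 in adults (edgeR adjusted p = 0.044), and these groups overlapped. Arhgef11 lost its call without TOM+ replicate 1 (adjusted p = 0.073) or adult replicate 3 (0.055), and Rnd3 without TOM+ replicate 1 (0.065) or adult replicate 1 (0.071) or 3 (0.058). Fyn lost it with limma on TPM (0.14).

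In TOM- DC2 over the same adult libraries the 13 genes that passed were these 12, each in the same direction, and Rap1a (log2 fold change -0.33, SE 0.10, edgeR adjusted p = 0.022), which lost its call with limma on log2(TPM + 1) (0.47), with RSEM counts (0.053) and without TOM- replicate 1 (0.056) or 3 (0.054) or adult replicate 1 (0.095). Arhgef11 lost its call there without TOM- replicate 1 (0.063) or 3 (0.081) or adult replicate 3 (0.058). Fyn, which acts downstream of Sema3a, was the 1 signalling gene that passed between the young groups, at 59.29, 53 and 56.28 TPM in TOM+ cDC2 and 46.63, 42.72 and 42.96 TPM in TOM- DC2 (log2 fold change 0.37, SE 0.08, edgeR adjusted p = 0.040). Its groups did not overlap, and the call was lost with limma on TPM (adjusted p = 0.15), without any 1 of the 6 young libraries (0.098 to 0.18) and without adult replicate 2 (0.059). The 3 proteases that release membrane semaphorins, Adam10, Adam17 and Mmp14, passed in no comparison (edgeR, 0 of 3 also at an unadjusted p under 0.05, and 0 with DESeq2), with log2 fold changes between -0.12 and 0.24.

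**Figure D4:**
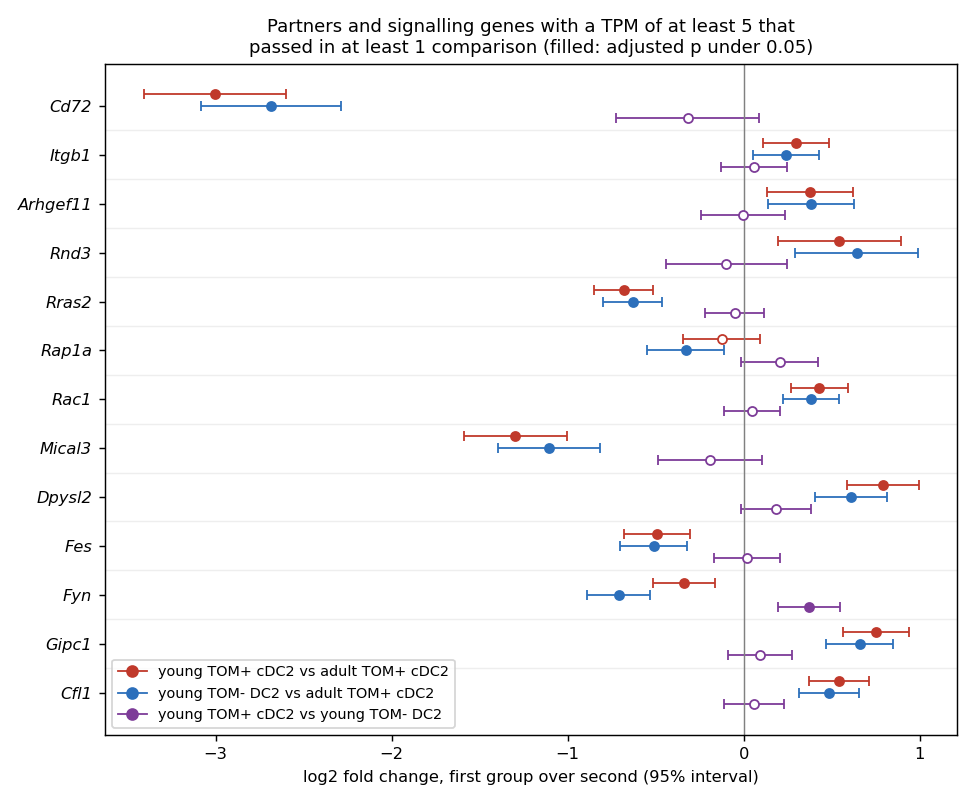
Log2 fold change with 95% interval (horizontal axis) of the partners and signalling genes with at least 5 TPM that passed in at least 1 comparison. Filled symbols passed. Cd72 is farthest from 0, at -3.01 and -2.69 in the comparisons with adults, and Fyn has the only filled symbol between the young groups.

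Over the 9 libraries, among the genes whose log2(TPM + 1) followed a member most closely, of 9084 or 9085 other genes of at least 5 TPM, were Syce2, Emilin2 and Orc6 for Sema4a (Pearson r 0.997, 0.997 and 0.996), Lrp8, Ggta1 and Ankrd33b for Sema7a (0.991, 0.989 and 0.988), Prr14 and Grina for Sema4d (0.991 and 0.987), Lrch1, Hmox2 and Pde4dip for Plxnc1 (0.991, 0.99 and 0.989) and Lig1 and Trappc1 for Plxnd1 (0.99 and 0.989). The 9 libraries form 3 groups, and 910 genes had an r over 0.95 with Sema4a and 580 with Plxnd1, so a high r is common for a gene that differed with age. For Nrp1, which did not pass between the TOM+ groups, the closest were 5830418K08Rik, Tmed4 and Hook1 (0.933, 0.926 and 0.925), and no gene was over 0.95. The closest to Sema4b were Slc25a30, Cbx6 and Pdzd11 (0.964, 0.955 and 0.948), to Sema6d Rab2a, Zmym5 and Dram2 (0.944, 0.943 and 0.873) and to Plxnb2 2900026A02Rik, Mtr and Mcm3ap (0.958, 0.951 and 0.95).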

How the data were processed

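The authors sorted cells into lysis buffer, made cDNA with SMART-seq v4, sequenced single-end reads and aligned them to mm10 with STAR. Per gene, the authors deposited STAR's read counts without normalization, of which the unstranded column was used (each stranded column held about as many reads, 50.4% to 50.7%), and RSEM's expected counts (rounded here where tested), TPM and FPKM (not used). Mapping and counting versions are not given in the sources used here. TPM are relative to each library's total. Genes that overlap a member are uncertain, since counting used no strand.

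Groups came from the labels, and replicates were numbered in accession order. The study describes these libraries as biological replicates, with spleens of young mice pooled. Nothing in the labels says that libraries of a group came from separate animals, so p-values measure the spread between these libraries. Libraries of a group were not copies: the lowest chi-square per gene between 2 was 9.181. Counts of genes with an average of at least 1 in 9 libraries were tested with edgeR 4.0.16 (R 4.3.3, TMM factors 0.894 to 1.08, quasi-likelihood test, 3 groups in 1 fit, Benjamini-Hochberg over all genes), tested first on simulated data. SE and 95% intervals (unadjusted) come from the quasi-likelihood F. The study used DESeq2, run here as an alternative (1.42.0, with apeglm 1.24.0), as were limma 3.58.1 on log2(TPM + 1), other filters and scalings, RSEM counts, a replicate block and leaving out each library. Shares were compared by exact permutation. The pairing number is the one carried by the deposited names, and no label says what it marks. Young libraries of the same number deviated together from their group means (r = 0.5, 0.179 and 0.33 for the 3 pairs, all over 0.1). The highest r of each of these TOM+ libraries with a TOM- library of another number was -0.304, 0.0464 and 0.185. The numbers were taken to pair the young libraries, so the pairing was inferred from these same data. Adult libraries also carry such numbers and were not paired. Members and gene lists were chosen with earlier results of these data known. Every member is named. Other listed genes are named with an adjusted p under 0.05 and at least 5 TPM in a group, and exceptions are stated. Ighm, Trac, Adgre1 and Ly6g of the marker lists were not found under these symbols. A few genes of these lists are not reported here.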

Additional observations from a re-analysis of the deposited data

How the results depend on the processing

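No member reversed its direction past the threshold: 22 of the 27 member results (9 genes in 3 comparisons) kept their side of the threshold in all 20 alternatives, and the other 5 (Sema4a and Nrp1 between the young groups, Sema4b in young over adult TOM+ cDC2, and Plxnb2 in both comparisons with adults) are given with the genes. The count of members passing between the young groups was 2 in place of 1 with DESeq2, with apeglm shrinkage, without a filter on low counts and with the replicate block, and 0 to 2 when 1 library was left out (0 without TOM+ replicate 2 or 3 or TOM- replicate 1 or 3, and 2 without adult replicate 1 or 2). With only the 6 young libraries it was 1, but that gene was Nrp1. Genes called over all genes with limma on log2(TPM + 1) fell from 1853 to 1147 (1123 without a filter) for young over adult TOM+ cDC2 and from 1631 to 1014 (994) for TOM- DC2 over adults. On that scale the median log2 fold change of all genes was 0.125 and 0.164 in these comparisons, against 0.049 and 0.07 in edgeR. The replicate block moved the calls between the young groups from 170 to 211 genes and changed no other member's call. With STAR counts per effective length in place of TPM, the semaphorins summed to 365, 368 and 462 and the plexins to 278, 277 and 310 on the TPM scale in young TOM+ cDC2, TOM- DC2 and adults. The cause of these changes was not tested. Depth limits Sema4b and Sema6d (23 to 181 and 44 to 117 reads a library) and the family genes under 1 TPM.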
